A study of Mus musculus with 384 samples.

Results

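Cytosolic ribosomal proteins are the protein part of the ribosomes that translate nuclear mRNAs. The genes described here have a protein-coding record in the GENCODE M21 annotation of GRCm38 and a symbol made of Rps or Rpl, a number and at most a letter a, x, y or l with a further digit, or are Rpsa, Rplp0, Rplp1 or Rplp2. The count table of 31617 genes, 17174 of them protein-coding, held 82 such genes, 32 of the small subunit and 50 of the large subunit. Rpl39l, which meets the same rule, was not analysed here.

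Single cells of 4 mouse pluripotent lines were profiled by Smart-seq2, a full-length mRNA protocol without molecular identifiers, after sorting 1 cell per well. 5ar1 and 5ar2 were formative stem (FS) cell lines in AloXR, a serum-free medium holding activin at 3 ng/ml, XAV939, which inhibits tankyrase, at 2 μM, and BMS493, which acts against retinoic acid receptors, at 1 μM. AFX6 was an epiblast stem cell (EpiSC) line in AFX, with 20 ng/ml activin, Fgf2 and 2 μM XAV939. AF32 was an EpiSC line in AF, with 20 ng/ml activin and Fgf2 and no inhibitor. Each EpiSC medium was represented by 1 line, so line and medium cannot be told apart, and nothing in the labels ties the 96 cells of a line to separate cultures. FS and EpiSC lines were compared with lines as replicates, 2 against 2, in the cells with at least 3000000 counts, which were 90 of 5ar1, 90 of 5ar2, 66 of AFX6 and 80 of AF32.

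Ribosomal proteins are needed in near equal amounts, and their mRNAs are among the most abundant of any growing cell. Most of these mRNAs start with a C and a run of pyrimidines, the terminal oligopyrimidine (TOP) start, through which mTOR signalling sets their translation together with that of several elongation and initiation factors. A few of the proteins have a paralogue encoded by another gene, and some of these paralogues are used mainly in a particular tissue.

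The pyrimidine run near the gene start is shown for 6 of the genes whose levels are given below, because the TOP start is a sequence feature these genes are known for. Each window is 30 bases of GRCm38.p6 on the strand of the gene and starts 8 bases before the run, which is in capitals. The run of Rpl26 starts 23 bases downstream of its RefSeq start, which its window does not hold. Relative to the RefSeq start, the runs begin at −16 for Rpl13 and −12 for Rps27l. With lengths of 10 and 9 bases, both end upstream of that start. The other runs begin at −2 for Rps27, 3 for Rpl22l1 and −4 for Rplp2.
Rpl13: tgacgtcaCTTCCCTTTCgcctgattttga
Rpl26: gtgtagttCTCTTTCCTTTTgcggccatcg
Rps27: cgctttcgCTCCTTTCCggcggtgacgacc
Rps27l: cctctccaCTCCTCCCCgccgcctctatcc
Rpl22l1: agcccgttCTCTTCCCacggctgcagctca
Rplp2: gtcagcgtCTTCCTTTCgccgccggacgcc
The windows lie at chr8:123102326-123102355 for Rpl13, chr11:68901581-68901610 for Rpl26, chr3:90213629-90213658 for Rps27, chr9:66946066-66946095 for Rps27l, chr3:28805503-28805532 for Rpl22l1 and chr7:141447639-141447668 for Rplp2. Rps27 is on the minus strand and the others are on the plus strand. The run searched for was at least 8 pyrimidines in a row of which the first is a C, on the strand of the gene, starting within 30 bases of the RefSeq start in either direction. It was found in 38 of the 62 ribosomal protein genes with a RefSeq start (61.3%) and in 22.1% of 16522 protein-coding genes with one. A stricter form, a C at the start itself followed by 4 pyrimidines, was found in 13 of the ribosomal protein genes (21%) and in 2.712% of the protein-coding genes. A match describes these letters and is not a mapped start site.

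Ribosomal protein genes took a larger share of the counts in AFX6 than in the other lines, while 5ar2 and AF32 lay close together. In 5ar1 the share of a cell's counts on these genes had a median of 6.793%, with a range of 3.72–9.65% over 90 cells. In 5ar2 the median was 8.26%, with a range of 4.72–13.6% over 90 cells. In AFX6 it was 10.2%, with a range of 7.02–24.3% over 66 cells, and in AF32 8.36%, with a range of 5.09–19.5% over 80 cells. The medians were thus ordered 5ar1, 5ar2, AF32, AFX6, and those of 5ar2 and AF32 differed by less than the spread between the lines of either class. Averaged over lines, the median share was 7.53% ± 1.04 (SD, n = 2) for FS lines and 9.261% ± 1.279 (SD, n = 2) for EpiSC lines, 1.733 percentage points higher, with an exact two-sided permutation p = 0.333. This is the smallest p that 2 lines against 2 can give. The difference of FS minus EpiSC lines was −0.998 percentage points without 5ar1 and −0.829 without AFX6.

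The highest shares belonged to a few cells of AFX6. The share was above 15% in 7 of the 66 AFX6 cells, in 1 of the 80 AF32 cells and in 0 of the cells of 5ar1 and 5ar2. Of these 7 AFX6 cells, 6 had counts on fewer than 10000 genes, as had the AF32 cell. Across the cells of a line the share was lower where more genes were detected, with Spearman's rho of −0.305 for 5ar1, −0.471 for 5ar2, −0.796 for AFX6 and −0.411 for AF32. These are over 90, 90, 66 and 80 cells, and both measures come from the same library of a cell. Against the total count of the cell the correlation was 0.211, −0.245, −0.167 and 0.262 in the same order of lines. Among cells with 10000 to 12000 detected genes, which were 83, 78, 45 and 62 of these lines, the median share was 6.888% for 5ar1, 8.35% for 5ar2, 9.42% for AFX6 and 8.20% for AF32. FS minus EpiSC lines then came to −1.19 percentage points with an exact permutation p = 0.667, and AF32 lay under 5ar2. The part of the number of detected genes in the difference between lines was not tested further.

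**Figure D1:**
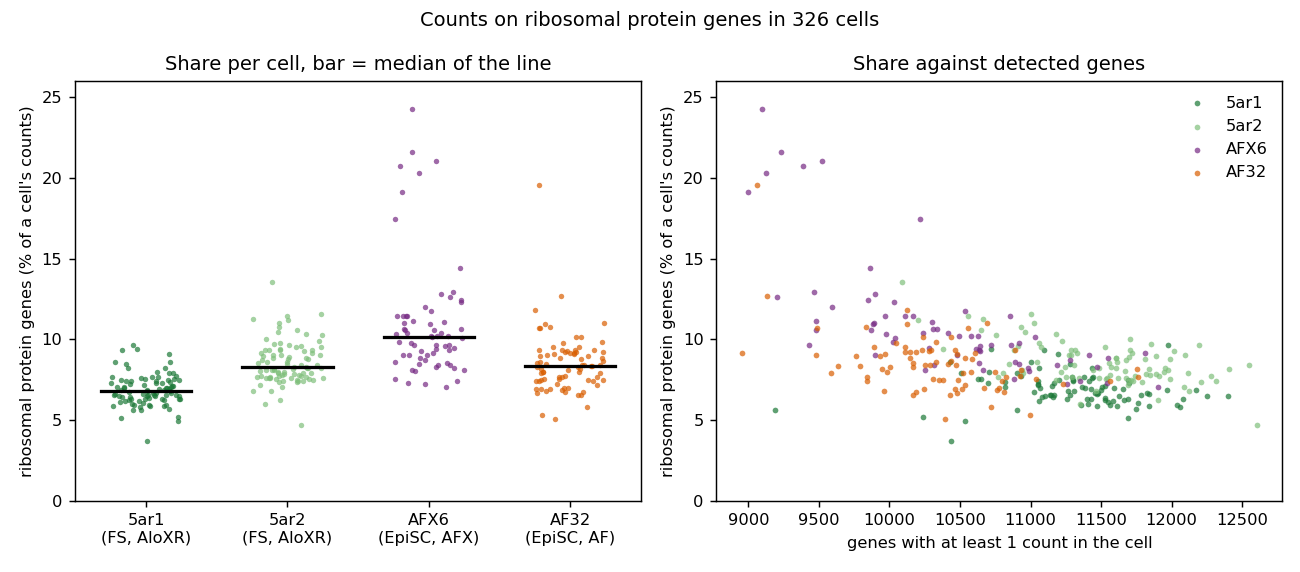
Share of a cell's counts on ribosomal protein genes for each of the 326 cells by line (left, bar at the median) and against the number of genes with at least 1 count (right). Medians run from 6.793% in 5ar1 to 10.2% in AFX6, and of the 7 AFX6 cells above 15%, 6 lie under 10000 genes in the right panel.

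Small and large subunit genes went together from cell to cell. The counts on the 32 small subunit genes and on the 50 large subunit genes, as shares of the same totals, correlated across cells with rho of 0.953 for 5ar1, 0.969 for 5ar2, 0.976 for AFX6 and 0.913 for AF32. The ratio of small to large subunit counts had medians of 0.761 for 5ar1, 0.748 for 5ar2, 0.748 for AFX6 and 0.718 for AF32. AF32 thus had the lowest ratio. The mean ratio was 0.754 ± 0.00965 (SD, n = 2) in FS lines and 0.733 ± 0.0217 (SD, n = 2) in EpiSC lines, with an exact two-sided permutation p = 0.667. A level of at least 20 CPM (counts per 1000000 counts, from the summed counts of a line) in some line was reached by 79 genes, and each of these had counts in every cell kept. The coefficient of variation of a gene over the cells of a line had a median of 0.222 for 5ar1, 0.238 for 5ar2, 0.448 for AFX6 and 0.329 for AF32. The least variable gene was Rpl4 in 5ar1 and AFX6, Rps2 in 5ar2 and Rps3 in AF32, and the most variable was Rpl22l1 in both FS lines, Rps21 in AFX6 and Rps12 in AF32.

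Between the classes, most ribosomal protein genes were lower in FS lines than in EpiSC lines, but none passed the test. edgeR's quasi-likelihood test on counts summed per line tested 81 of the 82 genes among 22606 and called 0 of them at an adjusted p under 0.05, with 0.0% of all genes called. DESeq2 called 4, among them Rpl7l1, Rpl13 and Rpl26, which is 4.94% of the 81, against 11.5% of all genes to which it gave an adjusted p, and limma called 0. At an unadjusted p under 0.05 edgeR had 6 of the 81 higher in EpiSC lines (7.41%), against 7.02% of all genes, and 1 higher in FS lines (1.235%), against 9.06% of all genes. Of the 81 genes, 74 had a negative log2 fold change of FS minus EpiSC lines, with a median of −0.34. The median over all genes tested was −0.01. The median of the 81 genes was −0.15 without 5ar1, −0.08 without AFX6 and −0.16 in cells with 10000 to 12000 detected genes, and those of all genes were −0.05, 0.17 and 0.01 in these fits.

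The levels of the lines overlapped for most genes. Both EpiSC lines lay above both FS lines in 29 of the 79 genes with at least 20 CPM (36.7%), against 28.1% of the 8122 genes at that level, and these were 9 small subunit and 20 large subunit genes. Both FS lines lay above both EpiSC lines in 1 of the 79, Rpl7l1, against 28.7% of all genes. In cells with 10000 to 12000 detected genes these counts were 25 and 2, the latter being Rpl7l1 and Rps13. The most frequent order of the lines, from the lowest to the highest level, was 5ar1, AF32, 5ar2, AFX6, seen in 33 genes, and the next was 5ar1, 5ar2, AF32, AFX6, seen in 21. 5ar1 was the lowest line for 63 genes and AFX6 the highest for 64.

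**Figure D2:**
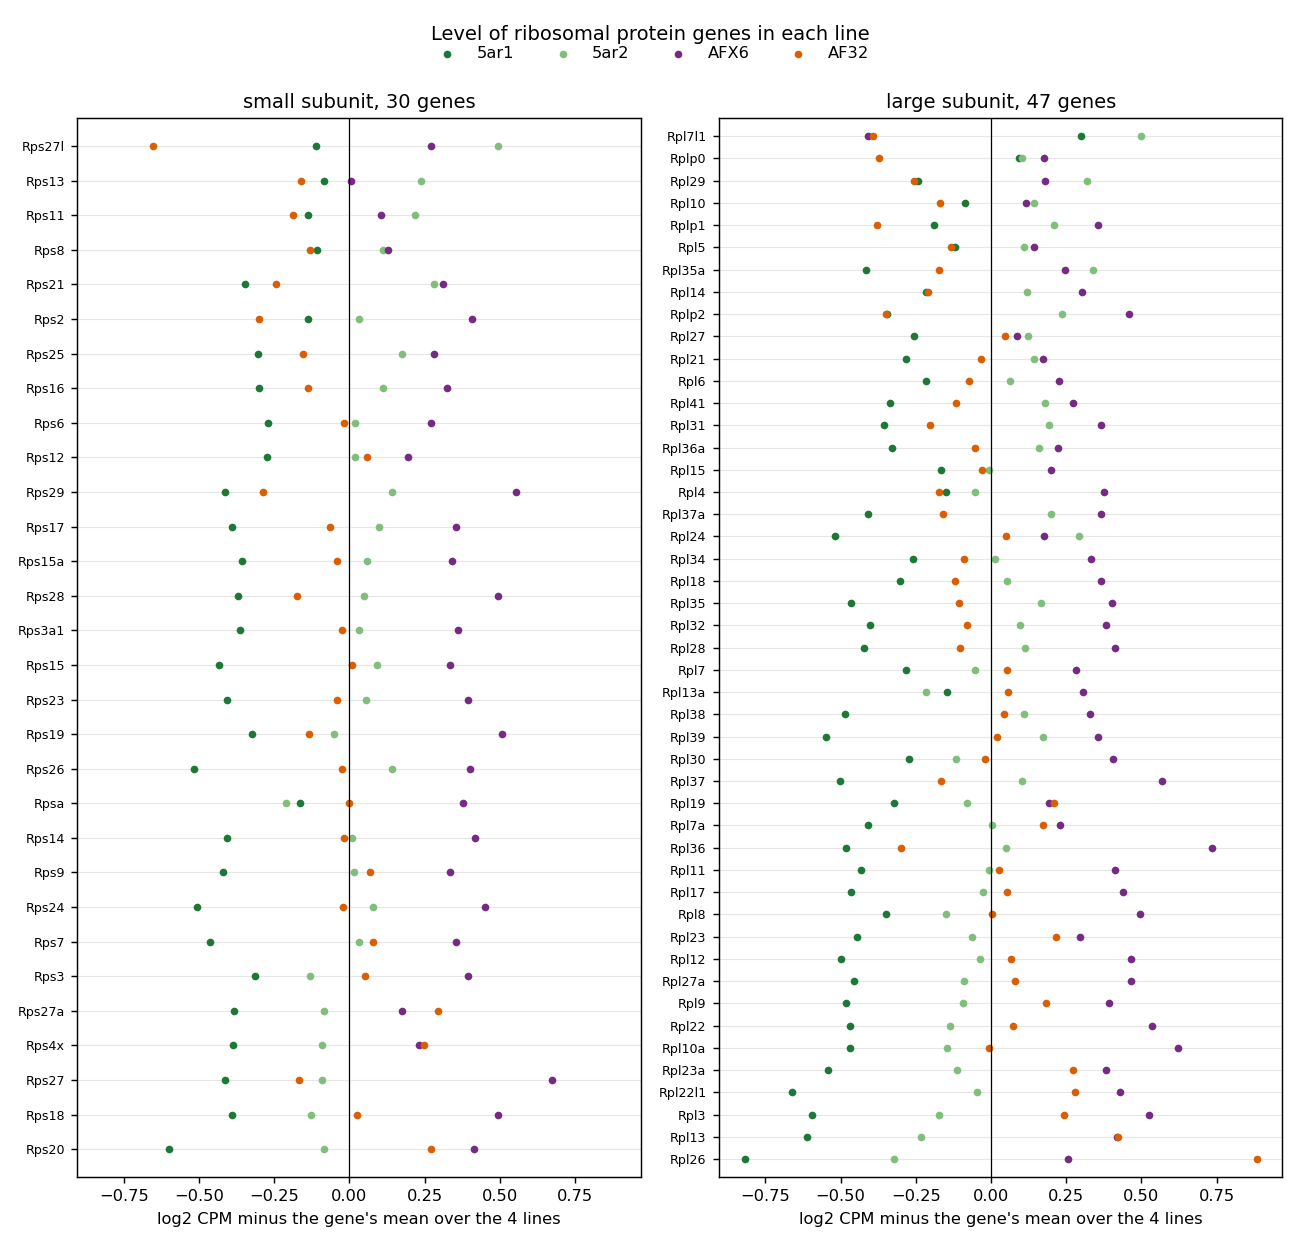
Log2 CPM of each line minus the mean over the 4 lines for 77 of the 79 ribosomal protein genes with at least 20 CPM in any line, sorted by the difference between FS and EpiSC lines. AFX6 is highest and 5ar1 lowest for most genes, Rpl7l1 at the top right has both FS lines above both EpiSC lines, and Rpl26 at the bottom right has AF32 well above the other lines.

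In the small subunit, Rps2 had the highest level per length of all these genes, and its protein lies at the entry of the mRNA channel. Its level per kb of transcript was 4024, 4519, 5872 and 3591 CPM in 5ar1, 5ar2, AFX6 and AF32, so that AFX6 was highest and AF32 lowest. Rpsa, which is also known as the laminin receptor, had 2422, 2346, 3530 and 2714 CPM in 5ar1, 5ar2, AFX6 and AF32. Its FS lines were alike and both lay under both EpiSC lines, with a log2 fold change of −0.40 ± 0.20 (SE) and an edgeR adjusted p = 0.448. Rps27a, made as a fusion with ubiquitin, had 1142, 1404, 1683 and 1826 CPM, and Rps4x had 1559, 1915, 2393 and 2424 CPM in the same order of lines. In both genes AF32 was the highest line.

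In the large subunit, Rpl26 had the largest difference between the classes among genes with at least 20 CPM. Without AF32, however, its log2 fold change was −0.84, and several genes had larger ones. Among these were Rpl36 (−0.96), Rpl3 (−0.93), Rpl13 (−0.86) and Rpl22 (−0.86). Rpl26 lies at chr11:68901583-68906989, and its protein sits near the exit of the peptide tunnel. Its level was 624, 880, 1316 and 2032 CPM in 5ar1, 5ar2, AFX6 and AF32. The 4 lines were well apart, AF32 being 1.544-fold above AFX6, and the log2 fold change of FS minus EpiSC lines was −1.15 ± 0.30 (SE) with an edgeR adjusted p = 0.201. Rpl13, at chr8:123102350-123105244, had 1621, 2107, 3310 and 3314 CPM in 5ar1, 5ar2, AFX6 and AF32. Here the EpiSC lines were alike and both lay above both FS lines, with a log2 fold change of −0.84 ± 0.19 (SE) and an edgeR adjusted p = 0.190. Rpl3, a protein close to the peptidyl transferase centre, had 892, 1196, 1944 and 1596 CPM in the same order of lines. Its log2 fold change was −0.77 ± 0.24 (SE), with an edgeR adjusted p = 0.241. Rpl13, Rpl18 and Rpl8 had the highest levels per length of the large subunit, with means over the lines of 3318, 3313 and 2900 CPM per kb.

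The stalk of the large subunit, which recruits the translation factors, is built from Rplp0 and pairs of Rplp1 and Rplp2. Rplp0 had 3280, 3303, 3478 and 2374 CPM in 5ar1, 5ar2, AFX6 and AF32. Rplp1 had 1136, 1498, 1658 and 995 CPM and Rplp2 603, 903, 1053 and 602 CPM in the same order. AF32 was the lowest line for each of the 3 genes, although Rplp2 was almost as low in 5ar1. Log2 fold changes of FS minus EpiSC lines were 0.16 ± 0.25, −0.02 ± 0.33 and −0.15 ± 0.38 (SE), with edgeR adjusted p between 0.852 and 0.990. AFX6 was 1.465-fold above AF32 for Rplp0, 1.6665-fold for Rplp1 and 1.7496-fold for Rplp2.

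Within the EpiSC lines, ribosomal protein genes were mostly higher in AFX6 than in AF32, and since each is 1 line there is no test. AFX6 lay above AF32 for 72 of the 79 genes, with a median fold of 1.306, whereas the median over all 7734 genes at this level was 0.09 on the log2 scale in the other direction. AFX6 exceeded AF32 by more than 1.5-fold in 11 of the 79 genes (13.9%), against 12.9% of all genes, and AF32 exceeded AFX6 in 1 (1.266%), Rpl26, against 21.0% of all genes. Rpl36 had the largest fold, with 868 CPM in AFX6 and 424 in AF32, 2.05-fold (95% interval 2.04–2.06, exact and for counting error only). Rps29 had 294 and 164 CPM and Rps27 had 524 and 293 CPM. Without cells outside 10000 to 12000 detected genes, 4 genes remained past 1.5-fold, namely Rpl36, Rps2 and Rps27l higher in AFX6 and Rpl26 higher in AF32, and the median fold of AFX6 over AF32 was 1.173. In those cells Rpl36 had 664 CPM in AFX6 and 396 in AF32.

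The genes that went against this order lay mostly on chromosomes 8 and 11. On these chromosomes lie 9 of the 79 genes, with a median log2 fold of 0.00. Of the 9, 5 were higher in AF32 than in AFX6, most of them only slightly. Among them were Rpl26 (1.544-fold), Rps27a (1.0845-fold), Rpl19 (1.011-fold) and Rpl13 (1.0013-fold). For Rpl13 the interval for counting error was 0.999–1.004 and held 1. Of the other 70 genes, 2 were higher in AF32, Rps4x (1.013-fold) and Rpl7l1 (1.01-fold), and the median log2 fold was −0.41. Over the 1150 other protein-coding genes on chromosomes 8 and 11 the median log2 fold of AF32 over AFX6 was 0.48, and over the 6357 elsewhere it was 0.05. The 9 ribosomal protein genes on chromosomes 8 and 11 ranged from −0.29 to 0.63. On chromosome 2 the median log2 fold was 0.26 over 622 other protein-coding genes, but −0.45 over 4 ribosomal protein genes. The part of chromosome-wide differences in these folds was not tested. Rpl19, on chromosome 11, had 1272, 1504, 1818 and 1838 CPM in 5ar1, 5ar2, AFX6 and AF32. Without the 9 genes the share of counts was 6.06% for 5ar1, 7.33% for 5ar2, 8.92% for AFX6 and 6.8065% for AF32, so that AF32 lay under 5ar2, with an exact permutation p = 0.667.

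Within the FS lines, nearly all ribosomal protein genes were higher in 5ar2 than in 5ar1, although both lines were kept in the same medium. 5ar2 lay above 5ar1 for 77 of the 79 genes, with a median fold of 1.3299, and the median log2 fold over all 7124 genes at this level was −0.05. 5ar2 exceeded 5ar1 by more than 1.5-fold in 12 of the 79 genes (15.2%), against 4.25% of all genes, and 5ar1 exceeded 5ar2 in 0, against 8.1% of all genes. The largest folds were those of Rpl24, with 33.9 CPM in 5ar1 and 59.5 in 5ar2, and Rpl35a, with 293 and 495 CPM. Both lie on chromosome 16, where the median log2 fold over 233 other protein-coding genes was 0.12. On chromosome 15 it was 0.18 over 295 such genes and 0.31 over 4 ribosomal protein genes. The part of the chromosome was not tested. Rpl39, which lines the peptide tunnel, had 172 and 284 CPM, Rps26 had 549 and 866 CPM, and Rpl35 had 236 and 366 CPM. The smallest folds belonged to Rpl13a, with 98.7 and 93.8 CPM, and to Rpsa and Rplp0, and Rpl4 had 3271 CPM in 5ar1 and 3504 in 5ar2.

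These folds differed with the length of the coding sequence. The median fold of 5ar2 over 5ar1 was 1.461 for the 27 genes with under 400 coding bases, 1.342 for the 29 with 400 to 600 and 1.171 for the 23 with 600 or more, with rho of −0.663 between log2 fold and coding length over the 79 genes. Other protein-coding genes showed a weaker form of this order, with median folds of 1.113, 1.05 and 0.939 in the same classes and rho of −0.262 over 6904 genes. For AFX6 over AF32 the median folds of ribosomal protein genes were 1.3775, 1.254 and 1.219, and the rho of AF32 over AFX6 with coding length was 0.361, which became 0.111 in cells with 10000 to 12000 detected genes. For 5ar2 over 5ar1 the rho was −0.682 in those cells. The log2 difference between FS and EpiSC lines had a rho of −0.016 with coding length. All of these are correlations across genes, which are not independent replicates. With the ribosomal protein genes of at least 600 coding bases alone, the median share was 3.53% for 5ar1, 3.99% for 5ar2, 4.97% for AFX6 and 3.88% for AF32.

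**Figure D3:**
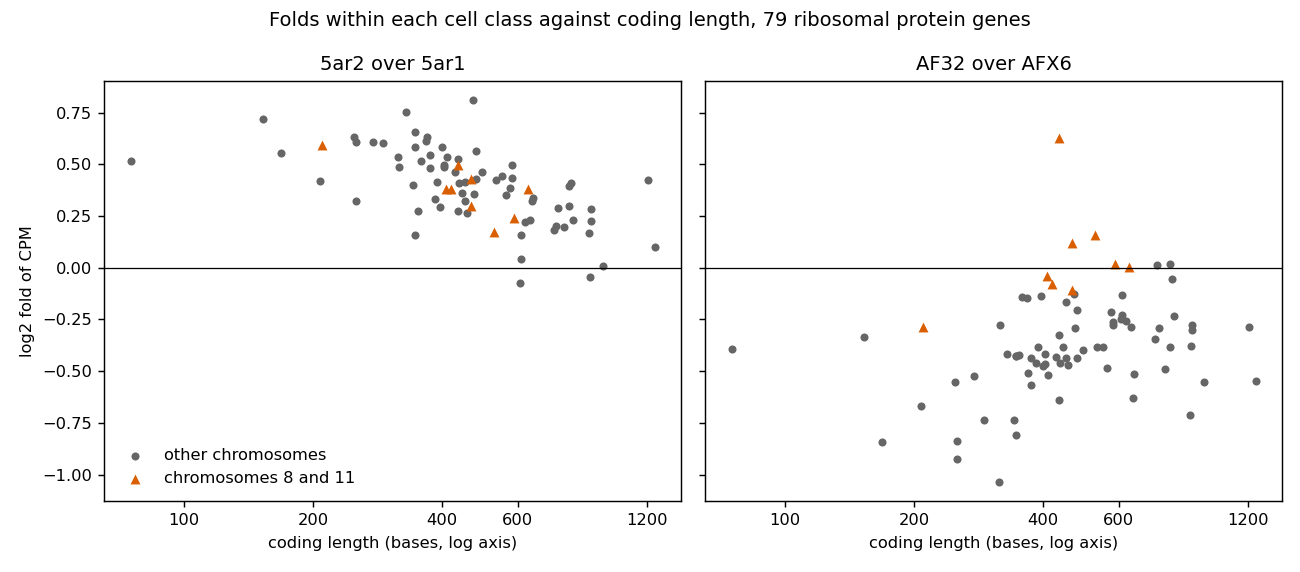
Log2 fold of 5ar2 over 5ar1 (left) and of AF32 over AFX6 (right) against the coding length of each of the 79 ribosomal protein genes, on a log axis, with genes on chromosomes 8 and 11 as triangles. Folds of 5ar2 over 5ar1 fall with length, with rho of −0.663, and on the right the triangles lie above most other genes.

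Of 5 paralogue pairs, 3 had both genes at 20 CPM or more. For Rpl7l1 and Rps27l the percentage of the pair on the paralogue did not overlap between FS and EpiSC lines. This held in cell medians and in summed counts. Levels of single genes did not overlap in 28.7% (FS lines higher) and 28.1% (EpiSC lines higher) of the 8122 genes at 20 CPM. The matching share over other gene pairs was not computed. Rpl7l1, at chr17:46773907-46782672 on the minus strand, is related to a yeast factor of large subunit assembly. It had 216, 248, 132 and 133 CPM in 5ar1, 5ar2, AFX6 and AF32, whereas Rpl7 had 1816, 2129, 2689 and 2291 CPM. Rpl7l1 thus lay higher in both FS lines, against the direction of 74 of the 81 genes tested, with a log2 fold change of 0.80 ± 0.17 (SE) and an edgeR adjusted p = 0.190. Its part of the pair in a cell, by counts, had a median of 10.1% for 5ar1, 10.3% for 5ar2, 4.36% for AFX6 and 5.26% for AF32. The means of these medians were 10.2% ± 0.172 (SD, n = 2) in FS lines and 4.81% ± 0.637 (SD, n = 2) in EpiSC lines, with an exact two-sided permutation p = 0.333, the smallest possible. In cells with 10000 to 12000 detected genes Rpl7l1 had 213, 244, 147 and 140 CPM. Across cells, the level of Rpl7l1 had little relation to the share of ribosomal protein counts, with rho of 0.015 for 5ar1, −0.209 for 5ar2, −0.277 for AFX6 and 0.053 for AF32.

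Rps27l is a close relative of Rps27 and a known target of p53. Their coding sequences are shown because the 2 proteins differ little and reads of 1 gene have to be told from those of the other. They are the GENCODE M21 coding sequences, with the bases that differ between them in capitals.
Rps27: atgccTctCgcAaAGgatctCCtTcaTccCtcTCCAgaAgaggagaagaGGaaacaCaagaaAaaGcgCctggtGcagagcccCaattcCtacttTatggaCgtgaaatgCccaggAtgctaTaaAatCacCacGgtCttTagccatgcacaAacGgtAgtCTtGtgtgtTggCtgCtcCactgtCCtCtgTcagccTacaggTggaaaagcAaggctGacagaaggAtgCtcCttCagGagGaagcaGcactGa
Rps27l: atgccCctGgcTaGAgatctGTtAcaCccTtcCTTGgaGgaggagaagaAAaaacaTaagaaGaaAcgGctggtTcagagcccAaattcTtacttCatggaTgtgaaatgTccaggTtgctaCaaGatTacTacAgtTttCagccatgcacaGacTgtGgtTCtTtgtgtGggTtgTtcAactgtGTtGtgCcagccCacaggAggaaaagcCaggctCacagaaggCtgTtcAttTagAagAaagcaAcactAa
The genes lie at chr3:90212522-90213651 on the minus strand for Rps27 and chr9:66946086-66949516 on the plus strand for Rps27l. Of the 255 aligned coding bases 194 were identical (76.1%), and the longest identical run was 11 bases, which is far shorter than a read of 101 bases. Rps27l had 406, 617, 530 and 279 CPM in 5ar1, 5ar2, AFX6 and AF32, and Rps27 had 247, 309, 524 and 293 CPM. Rps27l made up, at the median, 62.0% of the pair in a cell of 5ar1 and 66.8% in one of 5ar2, but 50.3% in one of AFX6 and 51.2% in one of AF32, so the classes did not overlap. The means were 64.4% ± 3.36 (SD, n = 2) in FS lines and 50.8% ± 0.636 (SD, n = 2) in EpiSC lines, with an exact two-sided permutation p = 0.333. The level of Rps27l itself overlapped between classes, with a log2 fold change of 0.33 ± 0.42 (SE) and an edgeR adjusted p = 0.812. AFX6 was 1.898-fold above AF32 for this gene (95% interval 1.883–1.913).

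Rpl22l1, the paralogue of Rpl22, had 76.5, 117, 163 and 147 CPM in 5ar1, 5ar2, AFX6 and AF32, and Rpl22 had 273, 344, 547 and 397 CPM. Both genes were higher in both EpiSC lines than in both FS lines, with log2 fold changes of −0.68 ± 0.28 and −0.62 ± 0.26 (SE) and edgeR adjusted p of 0.348 and 0.358. For Rpl22l1 the value was −0.43 without 5ar1 and −1.03 without 5ar2, and for Rpl22 it was −0.35 without AFX6. The share of Rpl22l1 in the pair had means of 22.0% ± 1.188 (SD, n = 2) in FS lines and 24.5% ± 1.452 (SD, n = 2) in EpiSC lines, with an exact permutation p = 0.333, and the neighbouring medians of 5ar2 (22.9%) and AFX6 (23.5%) lay well within the spread between cells. In summed counts the classes overlapped, at 21.9%, 25.4%, 22.9% and 27.0% in 5ar1, 5ar2, AFX6 and AF32. Like most of the group, and unlike Rpl7l1, Rpl22l1 was higher in cells with a higher share of ribosomal protein counts, of which it is itself a part, with rho of 0.245, 0.546, 0.557 and 0.487 in the same order. For Rps27l the rho was 0.462, 0.607, 0.667 and 0.391. Over all pairs of the 79 genes the median rho across cells was 0.404, 0.536, 0.624 and 0.504, and 96.9–97.5% of pairs were above 0.

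The other 2 pairs had almost no counts on the paralogue. Rpl3l, which replaces Rpl3 in striated muscle, had 1 count for 5ar1, 75 for 5ar2, 2 for AFX6 and 235 for AF32, found in 1, 1, 2 and 3 cells. At most 34.3 CPM were reached in a single cell, of AF32. Rpl10l, an intronless copy of Rpl10 used in the testis, had 0 counts in all lines, which allows up to 0.00696 CPM for 5ar1, 0.00690 for 5ar2, 0.00902 for AFX6 and 0.00843 for AF32, while Rpl10 had 1650, 1934, 1899 and 1559 CPM. The coding sequences of Rpl10 and Rpl10l were identical at 84.8% of their 645 bases, those of Rpl3 and Rpl3l at 74.4%, those of Rpl22 and Rpl22l1 at 70.2% and those of Rpl7 and Rpl7l1 at 62.6% of aligned bases.

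**Figure D4:**
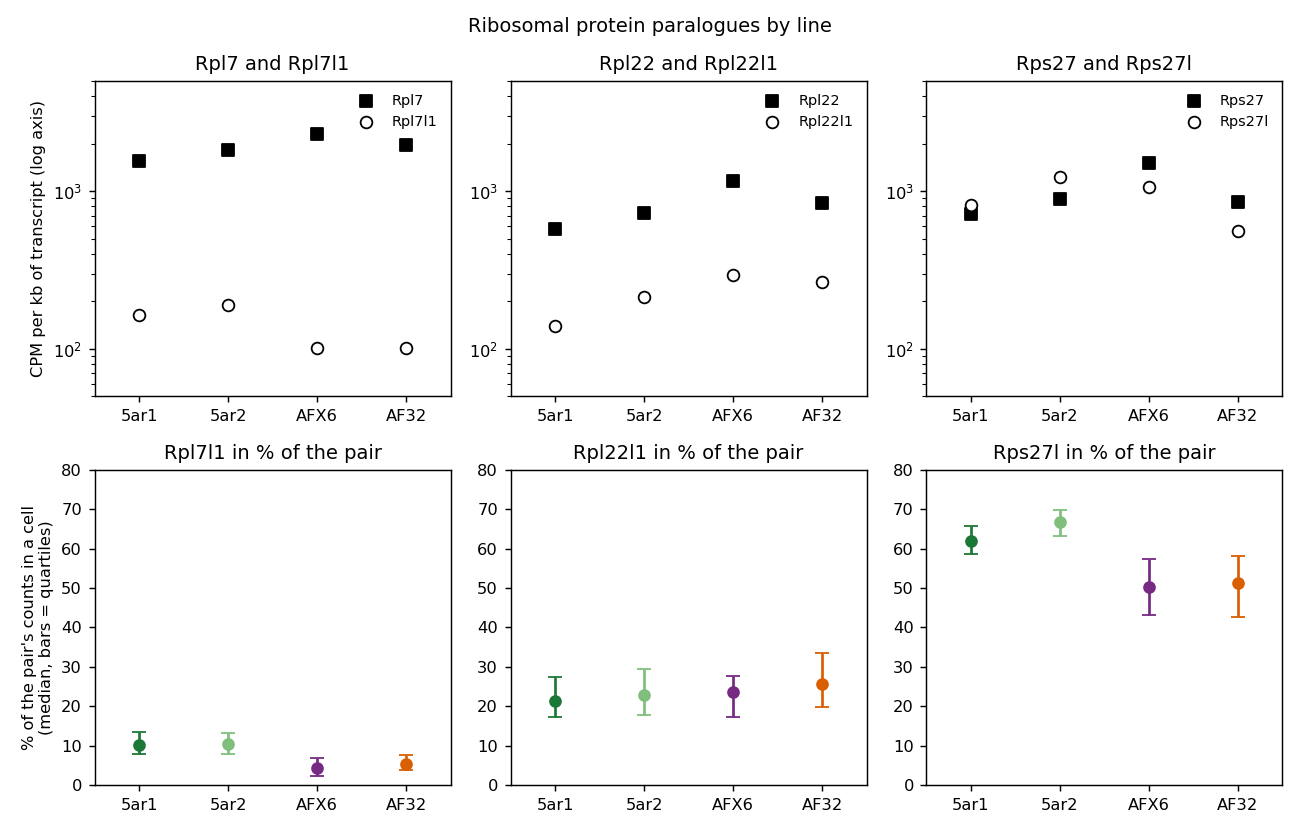
Level per kb of transcript of each gene of 3 paralogue pairs by line, on a log axis (top), and percent of the pair's counts on the paralogue in a cell, with the median and quartiles over cells (bottom). Rpl7l1 takes about 10% of the pair in both FS lines and 4.36–5.26% in EpiSC lines, Rps27l 62.0–66.8% and 50.3–51.2%, and Rpl22l1 21.2–22.9% and 23.5–25.6%.

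Levels of different genes may also depend on how much of each transcript can be counted. Ribosomal protein genes have many processed pseudogenes, and only uniquely mapped reads were counted. Of the windows of 101 bases along a transcript, the share found in no other GENCODE M21 transcript had a median of 57.2% over the 82 genes. It was under 50% for 36 genes and 100% for 8. Rps27l had 100% and Rpl7l1 97.9%, but Rps27 had 1.633%, Rpl10 8.44% and Rpl5 8.95%. The level of Rps27 against Rps27l within a line therefore cannot be read as their ratio of mRNAs. The comparison between lines uses the same windows, but for Rps27 these are few. Whether their recovery differed between lines was not tested. Over 81 genes with counts the correlation of this share with the mean CPM per kb was 0.050. In the table, 253 pseudogenes of any type carried a symbol derived from one of the ribosomal protein genes. Their counts came to 2.04% of those of the ribosomal protein genes for 5ar1, 2.04% for 5ar2, 2.09% for AFX6 and 2.112% for AF32, almost the same in every line. Rps3a3, one of these, had 448, 571, 757 and 644 CPM, in the order of lines seen for its parent Rps3a1 at 308, 405, 509 and 390 CPM except that AF32 lay above 5ar2.

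Other genes of the translation machinery were compared from lists chosen with earlier results of these data known. Among 6 ribosomal proteins outside the symbol rule, edgeR called 0, and 0 passed an unadjusted p of 0.05. Fau, whose product is processed to a small subunit protein, had 625, 1010, 1166 and 886 CPM in 5ar1, 5ar2, AFX6 and AF32, and Rack1, a small subunit scaffold, had 2456, 2326, 2195 and 2786 CPM. Fau followed the order most frequent in the group and Rack1 did not. Rpl36al, Rpl13-ps3 and Rps27rt were under 20 CPM in every line, with log2 fold changes of 0.55, −0.66 and −0.42. Of 17 other mRNAs listed as having a TOP start, edgeR called 0, 1 was higher in FS lines and 2 in EpiSC lines at an unadjusted p under 0.05, against 9.06% and 7.02% of all genes, and the median log2 fold change was −0.05. Eef2, the elongation factor of translocation, had 2173, 1948, 4258 and 3615 CPM in 5ar1, 5ar2, AFX6 and AF32, and Eif3f had 396, 361, 526 and 634 CPM. Eef1d went the other way with 514, 725, 370 and 353 CPM, as did Eif3l with 620, 663, 499 and 481 CPM. The pyrimidine run was found in 4 of the 11 genes of this list with a RefSeq start.

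Genes that assemble ribosomes lay mostly higher in FS lines, in contrast to the ribosomal protein genes, although none passed the test. Both FS lines lay above both EpiSC lines in 38 of 42 ribosome biogenesis genes, against 28.7% of all genes, and the reverse held for 1, Pes1, against 28.1%. edgeR called 0 of the 42, while 30 were higher in FS lines at an unadjusted p under 0.05 and 0 in EpiSC lines, against 9.06% and 7.02% of all genes, and the median log2 fold change was 0.81. Polr1b, a subunit of RNA polymerase I, had 84.4, 75.5, 17.1 and 34.8 CPM in 5ar1, 5ar2, AFX6 and AF32, and the nucleolar helicase gene Ddx21 had 214, 234, 84.4 and 62.9 CPM. Pes1, which acts in large subunit maturation, had 220 CPM in 5ar1 and 237 in AF32. Together the 42 genes took 1.2% of the counts for 5ar1, 1.249% for 5ar2, 0.664% for AFX6 and 0.631% for AF32, so that the classes did not overlap, while the ribosomal protein genes took 6.905%, 8.53%, 10.7% and 8.54% of the same summed counts.

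Of 14 genes of the growth control of TOP mRNAs, edgeR called 0. At an unadjusted p under 0.05, 1 was higher in FS lines and 2 in EpiSC lines, against 9.06% and 7.02% of all genes. These 14 genes are too few to read a nearness to those shares or an excess over them. Eif4ebp1, a repressor of cap-dependent translation downstream of mTOR, had 874, 864, 427 and 422 CPM in 5ar1, 5ar2, AFX6 and AF32. Tsc1, an upstream inhibitor of mTOR, had 15.2, 14.8, 35.6 and 32.0 CPM, and Deptor had 11.3, 13.7, 43.7 and 24.6 CPM. Tsc2, the partner of Tsc1, lay higher in both FS lines with 42, 41, 33 and 32 CPM. Of 77 mitochondrial ribosomal protein genes tested, edgeR called 0, with a median log2 fold change of 0.20. At an unadjusted p under 0.05, 10 were higher in FS lines and 1 in EpiSC lines, against 9.06% and 7.02% of all genes. Both FS lines lay above both EpiSC lines in 35 of the 77, against 28.7% of all genes. The reverse held for 6, against 28.1%. Mrpl20 had 160, 165, 37.2 and 59.8 CPM and Mrps22 75.6, 75.9, 30.8 and 48.3 CPM. In the other direction, Mrpl14 had 48.3, 44.0, 57.1 and 87.2 CPM and Mrps33 23.3, 30.3, 39.7 and 43.9 CPM.

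**Figure D5:**
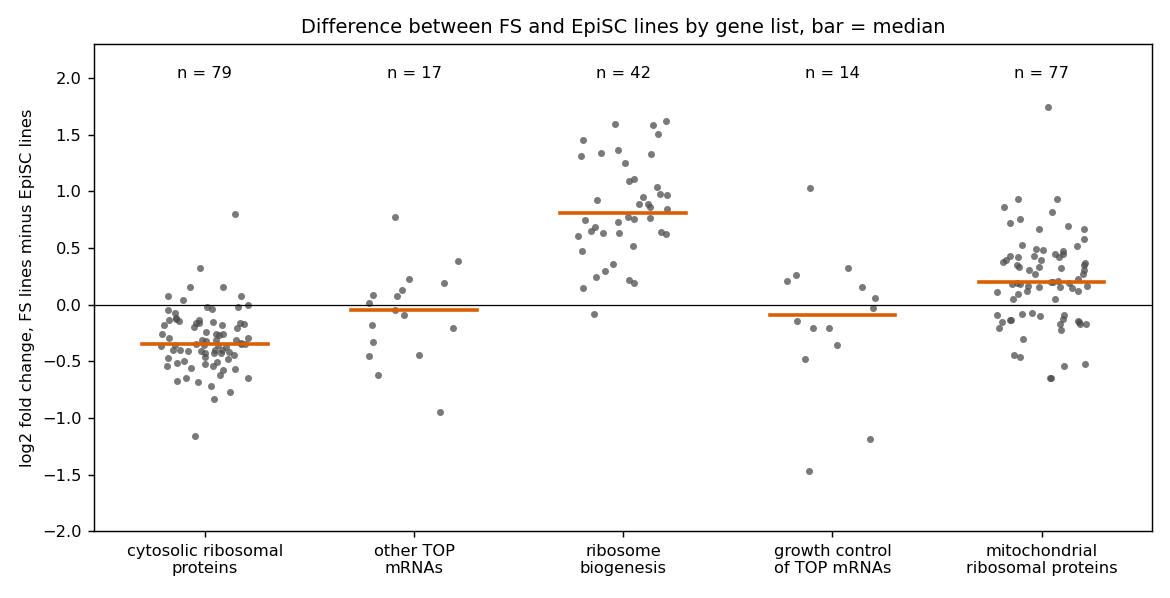
Log2 fold change of FS minus EpiSC lines from edgeR for each gene of 5 lists, with the median as a bar. Most of the 79 cytosolic ribosomal protein genes lie under 0 and 38 of the 42 ribosome biogenesis genes have both FS lines above both EpiSC lines, whereas the other TOP mRNAs lie around 0.

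The identity of the cells was read from marker lists. The 8 markers of pluripotent epiblast summed to between 2027 CPM in AF32 and 4200 in 5ar1, but they did not go together. Dnmt3b alone had 2243, 1434, 493 and 616 CPM in 5ar1, 5ar2, AFX6 and AF32. Nanog ran the other way with 28.5, 33.5, 159 and 400 CPM, and Utf1 was highest in AFX6 at 1057 CPM. Pou5f1 had 490–644 CPM in all lines, and Sox2 at most 17.5 CPM. Markers of extraembryonic endoderm summed to at most 7.71 CPM and those of trophoblast to at most 6.02 CPM, Gata4 and Sox17 being at 0 in both EpiSC lines. Markers of fibroblasts or feeders reached 40.7 CPM in 5ar2 and at most 14.4 CPM elsewhere. Neural markers summed to 343 CPM in 5ar1, 138 in 5ar2, 78.8 in AF32 and 19.2 in AFX6. Most of each sum came from Tubb3, with 335, 130, 68.7 and 12.2 CPM in the same order of lines. This order is the reverse of that of the ribosomal protein share. Sox1, Pax6 and Neurod1, at most 8.36 CPM in any line, did not follow it, Sox1 being highest in AF32 and Pax6 in AFX6. The part of these genes in the share was not tested. Afp, Ttr, Cdx2 and Lum were not analysed here.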

How the data were processed

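Raw read counts per gene and cell were deposited by the authors, whose methods describe alignment to GRCm38.p6 with STAR 2.7.3a and counting of uniquely mapped reads with featureCounts 2.0.0, as the submitters' processing notes also list. The authors also deposited whole-number values normalized with sctransform, treated here as a score and used only as an alternative. Cells with at least 3000000 counts were kept, as in the study's methods, and had 3022666 to 6686007 counts. No 2 cells had identical values (0 identical cells), and 0 columns of values were left unmapped. Protein-coding genes held 97.3% of the counts.

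Counts were summed per line, and FS and EpiSC lines were compared in edgeR 4.0.16 (quasi-likelihood test, TMM, Benjamini-Hochberg adjustment) over all genes, with DESeq2 1.42.0 and limma 3.58.1 in R 4.3.3 as alternatives. Because wells of a line are not tied to separate cultures, p-values measure the spread between lines only. Line medians were compared with exact two-sided permutation tests. CPM used summed counts, and levels per kb used 1 GENCODE transcript per gene. Intervals are exact at 95% and, like the limit of 3 counts for a gene with 0 counts, cover counting error only, because PCR copies of a molecule were counted separately. Other steps used Python 3.11.15, numpy 2.4.6, pandas 2.3.3, scipy 1.17.1, Biopython 1.88 and matplotlib 3.10.9.

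On simulated counts for FS lines against EpiSC lines, with 31617 genes and 200 changed 8-fold, edgeR recovered 200 with 1 false call at a dispersion of 0.05. It recovered 0 at 0.653, the common dispersion estimated from the lines over all genes tested. Each simulation gave every gene the same dispersion, so it does not measure the power for ribosomal protein genes. Alternatives changed the cells kept, normalization, filter, depth, test, threshold, genes counted and lines. The genes, lists and tests were chosen with earlier results of these data known. Named were all paralogue pairs, the stalk genes, the 5 genes with the largest fold each way in each comparison, the 5 with the highest CPM per kb, those under 1 CPM, and in each other list the 2 largest changes each way (1 gene of the biogenesis list was lower in FS lines). Rpsa, Rpl19, Rps3a1, Rpl5, Rps21, Rps12, Rps3, Rps13, Fau, Rack1 and the pseudogene Rps3a3, where outside that rule, were named after their values were seen. For a few genes, single values are not reported here.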

Additional observations from a re-analysis of the deposited data

How the results depend on the processing

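In the comparison of FS and EpiSC lines, 2 lines against 2 cannot give an exact p under 0.333. No paired analysis was possible because the replicate numbers name single cells whose counts were summed per line. The count of ribosomal protein genes called by edgeR (0, with 7 at an unadjusted p under 0.05) was 4 with DESeq2 and 0 without any 1 line. The difference in share of FS minus EpiSC lines lay between −2.64 and −0.829 percentage points without 1 line, and the difference in the small to large subunit ratio between 0.00610 and 0.0367. Past 2-fold in place of 1.5-fold, 1 gene remained between AF32 and AFX6 and 0 between 5ar1 and 5ar2, against 12 each, and in cells with 10000 to 12000 detected genes, an alternative chosen after seeing the data, 4 remained between AF32 and AFX6. Leaving out the genes on chromosomes 8 and 11 and keeping only genes of at least 600 coding bases were also chosen after seeing the data. Of 240 alternative log2 fold changes over 30 named genes, 20 changed sign and 220 did not, and the cause was not tested. With at least 4000000 counts per cell the value of Rplp1 was 0.026. Without 1 line the log2 fold changes that changed sign ranged from −0.12 to 0.22 for Rpl10, −0.51 to 0.022 for Rpl18, −0.65 to 0.15 for Rpl24, −0.65 to 0.0089 for Rpl35, −0.48 to 0.26 for Rpl35a, −0.96 to 0.12 for Rpl36, −6.96 to 3.77 for Rpl3l, −0.51 to 0.086 for Rpl4, −0.11 to 0.49 for Rplp0, −0.37 to 0.42 for Rplp1, −0.52 to 0.34 for Rplp2, −0.49 to 0.27 for Rps2, −0.081 to 0.89 for Rps27l and −0.70 to 0.19 for Rps29.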
